A study of Drosophila melanogaster with 3 samples.

Results

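The genes described here encode 10 proteins that bind promoters or insulators in Drosophila melanogaster: Trl, Chro, BEAF-32, CTCF, Cp190, su(Hw), mod(mdg4), M1BP, Dref and pita. They are 10 of 13968 protein-coding genes of the annotation, and each was found in it under its own name. The list was chosen with the peaks of these data known, and Trl and Chro were chosen by their top-ranked peaks. Their ranks, scores and peak counts are therefore given as a description, without a test. Chromatin of whole, mixed-sex embryos (0 to 24 h old) was immunoprecipitated with an antibody to GFP and sequenced (ChIP-seq). All 3 samples are biological replicates of 1 group, a transgenic line with a C-terminal eGFP on slou. The slou protein is a homeodomain factor of the NK class with roles in the identity of muscle founders and of some neurons. Chromatin was sonicated to fragments of 200 to 800 bp. No untagged or untreated sample is among the 3, so no conditions were compared, and the depth of each library is unknown. Whole embryos mix all cell types, so strong binding in few cells and weak binding in many cells cannot be told apart.

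Insulator proteins divide the fly genome into domains that limit which enhancers reach which promoters. BEAF-32, CTCF, su(Hw) and pita bind DNA themselves through their own motifs, while Cp190, mod(mdg4) and Chro (Chromator) are recruited by such proteins and hold the complexes together. Trl encodes the GAGA factor, which opens chromatin at promoters with GAGA repeats, and M1BP and Dref bind core motifs of broadly active promoters. Such broadly active genes often lie in head-to-head pairs, where start sites on opposite strands share a short stretch of DNA.

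The sequences below are shown because the members' peaks lay in or beside them, and untranslated exons are left out. Those of Trl and M1BP are the 101 bases centred on a summit, the position of highest enrichment that the authors deposited for each peak. The others are the stretches between the start sites of 2 genes on opposite strands, at or beside which the peak lay. All were read from the RefSeq Release 6 genome on the minus strand, the strand of the member or, inside mod(mdg4), of pre-mod(mdg4)-E, so each stretch begins at its neighbour and ends at that gene. The stretches at Cp190 and Dref hold the summit, while those at Chro and pre-mod(mdg4)-E end before the summit, which lay in a 5′ UTR. Capitals mark TAATTA, a homeodomain core, or TATCG, the reverse complement of the CGATA element bound by BEAF-32.
Trl, highest peak, in an intron, chr3L:14759464-14759564: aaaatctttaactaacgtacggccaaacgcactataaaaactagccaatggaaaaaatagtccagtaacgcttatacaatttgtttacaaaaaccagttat
Trl, peak near the distal start site, in an intron, chr3L:14760352-14760452: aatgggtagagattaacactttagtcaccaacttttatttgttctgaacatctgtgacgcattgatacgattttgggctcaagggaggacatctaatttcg
Trl, downstream peak, in an intron, chr3L:14756157-14756257: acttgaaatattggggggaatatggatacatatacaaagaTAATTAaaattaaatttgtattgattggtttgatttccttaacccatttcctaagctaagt
M1BP, upstream of the gene, chr3R:8731941-8732041: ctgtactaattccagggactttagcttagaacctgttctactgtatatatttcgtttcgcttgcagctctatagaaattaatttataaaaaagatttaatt
Ssl1 to Chro, chr3L:22878985-22879088: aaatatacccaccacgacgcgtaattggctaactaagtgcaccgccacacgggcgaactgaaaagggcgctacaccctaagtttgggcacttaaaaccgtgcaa
CG4338 to Cp190, chr3R:15275242-15275521: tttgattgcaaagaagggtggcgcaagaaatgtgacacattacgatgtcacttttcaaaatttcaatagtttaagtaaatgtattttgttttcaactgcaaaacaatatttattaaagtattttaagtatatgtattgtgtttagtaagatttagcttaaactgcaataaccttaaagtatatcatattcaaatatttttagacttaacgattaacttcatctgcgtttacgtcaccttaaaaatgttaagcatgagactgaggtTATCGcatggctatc
RpL13 to Dref, chr2L:9967230-9967312: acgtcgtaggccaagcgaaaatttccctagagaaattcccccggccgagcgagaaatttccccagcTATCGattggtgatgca
pre-mod(mdg4)-X to pre-mod(mdg4)-E, inside mod(mdg4), chr3R:21365489-21365608: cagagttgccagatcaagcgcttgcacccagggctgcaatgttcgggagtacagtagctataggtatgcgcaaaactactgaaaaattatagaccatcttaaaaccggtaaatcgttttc

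The peaks came from 3 kinds of list. Each replicate had its own list of 30000 peaks, a pooled list of 30000 peaks was called on all 3 replicates together, and the optimal list holds 2743 peaks of the pooled list. The pooled list was deposited as peaks and background, to be the input of a reproducibility procedure. A pooled-list summit outside the optimal list is therefore not in itself called binding. Each peak has a score that is the authors' own value on a scale not given in the sources used here, and rank 1 is the highest score of a list. Genes with an optimal summit between 1000 bp upstream and the end of the gene were called bound.

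By that definition 7 of the 10 genes were bound, which is 70.0% with a 95% Wilson interval of 39.7 to 89.2%. The background was 19.7% of all protein-coding genes. It was 31.1% of the genes with any pooled-list summit in the window, and 24.8% of the genes whose window was as long as those of the members, from 2909 to 27556 bp. Since the list was drawn up with peaks known, nothing is read from these shares. Trl, Chro, BEAF-32, Cp190, mod(mdg4), M1BP and Dref were bound, and CTCF, su(Hw) and pita were not. The 10 windows held 38 pooled-list summits, of which 10 were optimal, or 26.3% (15.0 to 42.0%) against 9.14% of the whole pooled list. Nothing is read from this share either, since Trl, chosen by its top-ranked peak, gave 4 of the 10 optimal summits. The intervals cover counting error only, and neighbouring peaks are not independent. The lowest member summit inside the optimal list was that of Dref, at rank 2170 with a score of 106. The highest outside it was that of pita, at rank 3072 with a score of 85.6, and the optimal list ended at a score of 92.0.

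**Figure D1:**
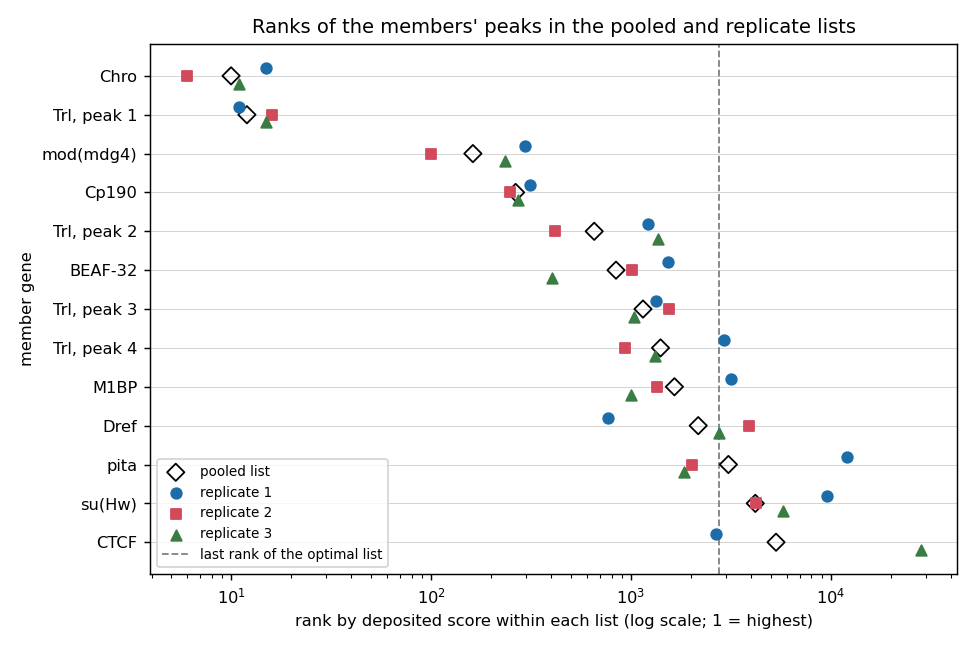
Rank by deposited score (x axis, log scale, 1 is the highest) of each optimal peak of the members and of the best peak of CTCF, su(Hw) and pita, in the pooled list and in each replicate list. The best peaks of Chro and Trl sit at ranks 6 to 16 in every replicate. The replicate symbols lie closest together at Cp190, and their spread varies from peak to peak. CTCF has no symbol for replicate 2 because no peak was listed there.

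Among the recruited cofactors, Chro had the highest peak of all 10 genes. Chro (FBgn0044324, minus strand, dm6 chr3L:22873702-22878984) held 1 pooled-list summit, and it was the optimal peak chr3L:22878719-22879072. Its rank was 15 in replicate 1, 6 in replicate 2 and 11 in replicate 3, and 10 in the pooled list with a score of 950. All 3 replicates thus placed it among their 15 highest peaks. The summit lay in the 5′ UTR, 93 bp downstream of the distal start site of Chro and 123 bp upstream of the start site that 3 of its 5 transcripts use. Ssl1, which encodes a subunit of the general transcription factor TFIIH, starts on the opposite strand 105 bp from the distal Chro start site and 198 bp from the summit. The summit lay on the Chro side of the distal start site, not between it and that of Ssl1, while the peak extended between them. It did lie between the Ssl1 start site and the one that 3 Chro transcripts use. In the replicates the summit was 53, 114 and 96 bp inside the distal start site. Among all bound genes ordered by their best peak, Chro came at place 14.

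Cp190 encodes a BTB and zinc-finger protein that joins several insulator complexes. The gene (FBgn0000283, minus strand, chr3R:15270432-15275241) held an optimal peak at chr3R:15275195-15275584 with a score of 296 and pooled rank 265. It ranked 313, 247 and 271 in replicates 1, 2 and 3, the narrowest relative range of ranks among the 10 optimal summits. Cp190 has 2 start sites with 1 transcript each. The summit was intergenic, 149 bp upstream of the distal start site and 600 bp upstream of the other. It lay 132 bp from the start site of CG4338, which is 281 bp from the distal Cp190 start site on the other strand. The replicate summits lay at −174, −90 and −164 bp from the distal Cp190 start site, so that all 3 also fell between it and that of CG4338. The other pooled-list summit of the gene lay in coding sequence at rank 13363.

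mod(mdg4) encodes a BTB protein of the su(Hw) insulator, and its many isoforms differ in their last exons, several of which are joined by trans-splicing from separate pre-mod(mdg4) transcripts. The gene (FBgn0002781, minus strand, chr3R:21350846-21377401) is 26556 bp long, and 23 annotated pre-mod(mdg4) genes lie inside it, 14 on its own strand and 9 on the other. Its optimal peak, chr3R:21365446-21365573, had a score of 358 and pooled rank 162. The ranks were 295 in replicate 1, 100 in replicate 2 and 235 in replicate 3 and replicate 2 thus placed it highest. The peak was 128 bp wide, while only 3.24% of optimal peaks were narrower than 150 bp. The summit lay 11928 bp downstream of the single annotated start site of mod(mdg4). It was 15 bp inside pre-mod(mdg4)-E, in its 5′ UTR, and 136 bp from the start site of pre-mod(mdg4)-X on the opposite strand, 121 bp from that of pre-mod(mdg4)-E. Of the 23 pre-mod(mdg4) genes, 10 had this summit within 500 bp of a start site, against 15.1% of all protein-coding genes with any optimal summit that close. Several of the 10 share the same start site, such as pre-mod(mdg4)-X, pre-mod(mdg4)-V and pre-mod(mdg4)-W, so nothing is read from the count.

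At the mod(mdg4) start site itself, which all 22 transcripts share, the nearest pooled-list summit lay 23 bp upstream and was not optimal. It had a score of 75.0 and rank 3817, and ranks of 4900, 5862 and 8632 in the 3 replicates. The nearest optimal peak on the upstream side lay 1337 bp away at rank 1832, just outside the window and toward tin, the NK homeobox gene next to mod(mdg4). The other pooled-list summits of the gene ranked from 6745 to 26276.

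Of the promoter-binding factors, Trl had the most peaks, in a window of 14121 bp against 2909 bp for M1BP and 4083 bp for Dref. Per 10 kb of window, the optimal summits were 2.83 for Trl, 3.44 for M1BP and 2.45 for Dref. Trl (FBgn0013263, minus strand, chr3L:14747929-14761049) has 10 transcripts from 4 start sites and held 4 optimal summits among 11 pooled-list summits. Only 46 protein-coding genes, 1.67% of those bound, held 4 or more optimal summits, while 2281 held 1. The highest Trl peak, chr3L:14759349-14759697, had a score of 855 and pooled rank 12, and it ranked 11, 16 and 15 in replicates 1, 2 and 3. Like that of Chro, it was among the 16 highest peaks of every replicate. Its summit lay in an intron, 1535 bp downstream of the distal start site and 1552 bp upstream of the start site that 7 of the 10 transcripts use and that CG42507, a gene overlapping Trl on the same strand, shares. By best peak, Trl came at place 18 of the bound genes.

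The other optimal peaks of Trl lay on both sides of this intronic peak and ranked lower. The peak chr3L:14756993-14757382 had a score of 194 and pooled rank 655, with ranks of 1211, 418 and 1360 in replicates 1, 2 and 3. Its summit was 148 bp inside the transcript with the innermost start site, in the 5′ UTR of Trl and of CG42507, and was the only optimal Trl summit within 500 bp of a Trl start site. The peak chr3L:14760207-14760596 had a score of 149 and pooled rank 1149, with ranks of 1332, 1545 and 1031. It also lay in an intron, 647 bp from the distal start site. The peak chr3L:14756012-14756401 had a score of 134 and pooled rank 1406, with ranks of 2924, 929 and 1313, so replicate 1 placed it below the length of the optimal list. From the downstream end the 4 summits were 981, 2326 and 888 bp apart and spanned 4195 bp. No optimal summit lay in the 3′ part of Trl, where the pooled-list summits ranked from 17787 to 23459.

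**Figure D2:**
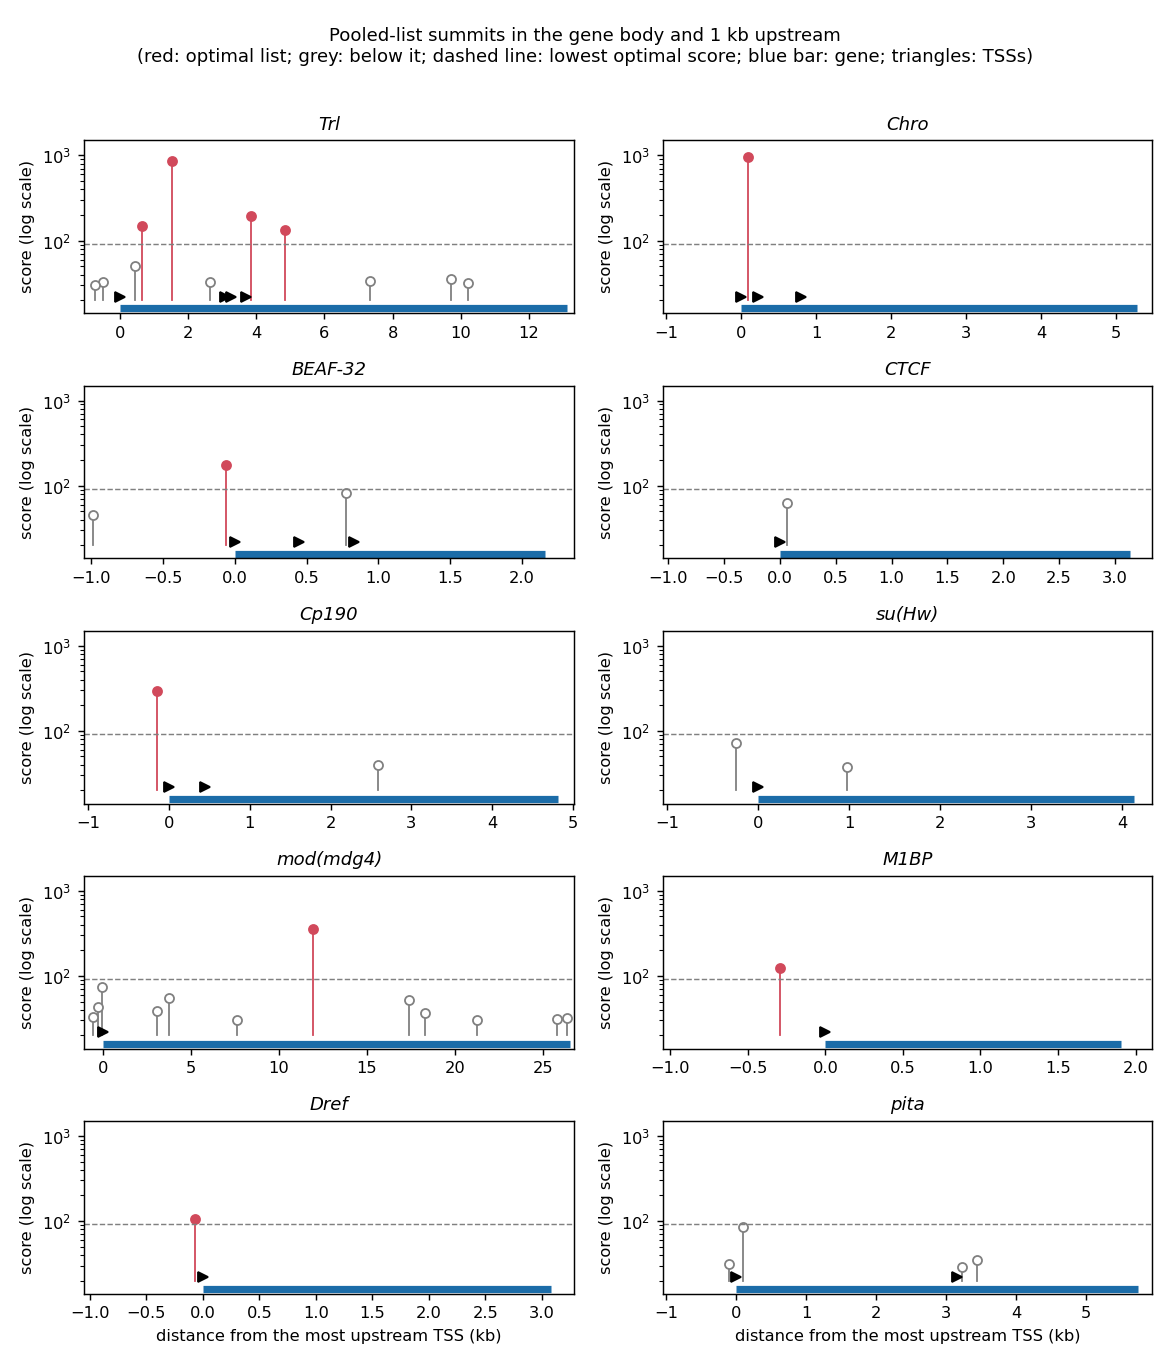
Pooled-list summits of the 10 genes by distance from the most upstream start site of the gene (x axis, kb, downstream to the right) and deposited score (y axis, log scale), with red points for optimal peaks, grey points for other pooled-list peaks, a dashed line at the lowest optimal score of 92.0, a blue bar for the gene and triangles for start sites. The red points of Chro, BEAF-32, Cp190, M1BP and Dref lie at or just upstream of a start site, the 4 of Trl lie in its upstream part, and that of mod(mdg4) lies 11928 bp inside the gene.

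M1BP is a zinc-finger protein that binds a core promoter motif of housekeeping genes and is linked to paused RNA polymerase. The M1BP gene (FBgn0037621, minus strand, chr3R:8729790-8731698) held 1 pooled-list summit, in the optimal peak chr3R:8731796-8732185, with a score of 124 and pooled rank 1650. The ranks were 3183, 1347 and 996 in replicates 1, 2 and 3, and replicate 1 again placed the peak below the length of the optimal list. The summit was intergenic, 293 bp upstream of M1BP and 100 bp from the start site of CG8202 on the opposite strand. In replicate 3 the summit lay 182 bp closer to M1BP than in the pooled list, the largest such shift among the 10 optimal summits, whose median largest shift was 43 bp.

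Dref binds the DNA replication-related element, TATCGATA, at promoters of growth and replication genes. Its gene (FBgn0015664, minus strand, chr2L:9964147-9967229) held 1 pooled-list summit, in the optimal peak chr2L:9967101-9967490, with a score of 106 and pooled rank 2170. Replicate 1 placed it at rank 769, replicate 2 at 3900 and replicate 3 at 2746. The highest rank number was 5.07 times the lowest, and 8.94% of optimal peaks listed in all replicates had a ratio as high. The start site of RpL13, which encodes a protein of the large ribosomal subunit, is 84 bp from that of Dref on the opposite strand. The pooled summit lay between both, 17 bp from RpL13 and 67 bp from Dref. The replicate summits lay at −106, −73 and 22 bp from the Dref start site, so that only that of replicate 2 fell between both start sites.

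Of the insulator proteins that bind DNA, BEAF-32 was the only member with an optimal summit. BEAF-32 (FBgn0015602, plus strand, chr2R:14770469-14772630) has 3 start sites, and its optimal peak chr2R:14770213-14770602 had a score of 173 and pooled rank 842. The ranks were 1531, 1013 and 404 in replicates 1, 2 and 3, all within the length of the optimal list. The summit lay 61 bp upstream of the distal start site, in an exon of the noncoding gene asRNA:CR42254. A second summit 55 bp upstream of the innermost start site was at rank 3263 with a score of 82.3, below the optimal list, and ranked 4657, 2134 and 4002 in the replicates.

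The other 3 DNA-binding insulator genes had pooled-list summits at their start sites that were outside the optimal list. The deposited −log10 q of the best of these was 2.1 for pita, 1.3 for su(Hw) and 0.877 for CTCF, against up to 3.03 in the optimal list. pita (FBgn0034878, minus strand, chr2R:23548967-23554712) encodes a zinc-finger protein that recruits Cp190, and its best summit lay 98 bp inside the gene, in the 5′ UTR, at rank 3072, 329 places below the last optimal peak. It ranked 12083 in replicate 1, 2031 in replicate 2 and 1847 in replicate 3, so replicates 2 and 3 placed it within the length of the optimal list and replicate 1 far below. su(Hw) (FBgn0003567, minus strand, chr3R:14304455-14308589), the protein of the gypsy insulator, had its best summit at rank 4188 with a score of 71.2, and ranks of 9517, 4205 and 5738. That summit lay 243 bp upstream of su(Hw) and 257 bp from the start site of Polr2I, a subunit gene of RNA polymerase II. The replicate summits lay at −249, −262 and −251 bp from su(Hw), near the middle between both genes. CTCF (FBgn0035769, minus strand, chr3L:7353578-7356713), the fly counterpart of the vertebrate insulator protein, had 1 summit, 61 bp inside the gene, at rank 5318 with a score of 61.9. It ranked 2677 in replicate 1 and 28156 in replicate 3 and was not listed in replicate 2.

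The peaks of the members differed in how steady their ranks were. For the 10 optimal summits the ratio of the highest to the lowest rank number over the 3 replicates ranged from 1.27 (Cp190) to 5.07 (Dref), with a median of 3.05, against a median of 2.12 over the 2695 optimal peaks listed in all replicates. Of the 10 optimal summits, 7 overlapped the 2743 highest peaks of all 3 replicates, 2 those of 2 replicates (M1BP and the downstream Trl peak) and 1 those of 1 replicate (Dref). Over all optimal peaks 60.7% (1664) were matched in all 3. The pooled list was made from the same replicates, so this match is no independent check. The median score of the member peaks was 184, against 136 over all optimal peaks. Trl and Chro were chosen by their top-ranked peaks, so nothing is read from this difference. The other 28 pooled-list summits of the members ranked from 3072 to 28023, and 9 of them overlapped a listed peak in all 3 replicates. Among those 9, the summits of Trl at rank 7730, mod(mdg4) at rank 11285 and pita at rank 24301 had no replicate peaks of their own. They overlapped the same replicate peaks as a higher-ranked neighbouring summit of the gene.

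By position, 6 members (Trl, Chro, BEAF-32, Cp190, M1BP and Dref) had an optimal summit within 500 bp of their own start site, against 15.1% of all protein-coding genes. All 10 had a pooled-list summit that close, against 48.3% of all protein-coding genes, and nothing is read from either count. Of the 10 optimal summits, 7 were within 500 bp of any protein-coding start site, or 70.0% against 56.1% of all optimal summits. For 4 of the 10 the nearest start site was that of another gene: CG4338 at Cp190, CG8202 at M1BP, RpL13 at Dref and pre-mod(mdg4)-E at mod(mdg4). A summit near such a pair cannot be assigned to either gene from its position.

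The arrangement of start sites was compared after the positions had been seen. Among the 10 members, 5 had the start site of a protein-coding gene on the opposite strand within 500 bp upstream: Chro, Cp190, su(Hw), M1BP and Dref. The share over all protein-coding genes was 27.3% (3815 of 13968). It was 58.7% among the 2111 genes with an optimal summit within 500 bp of their start site and 21.7% among the others. In the other direction, 32.5% of head-to-head genes and 8.59% of other genes had such a summit. Both genes of a pair are counted and can share a peak, so these shares are a description of the list. At Cp190, M1BP, Dref and su(Hw) the pooled summit lay between both start sites. At Chro it lay inside the distal start site, but between the start site that 3 of its 5 transcripts use and that of Ssl1.

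**Figure D3:**
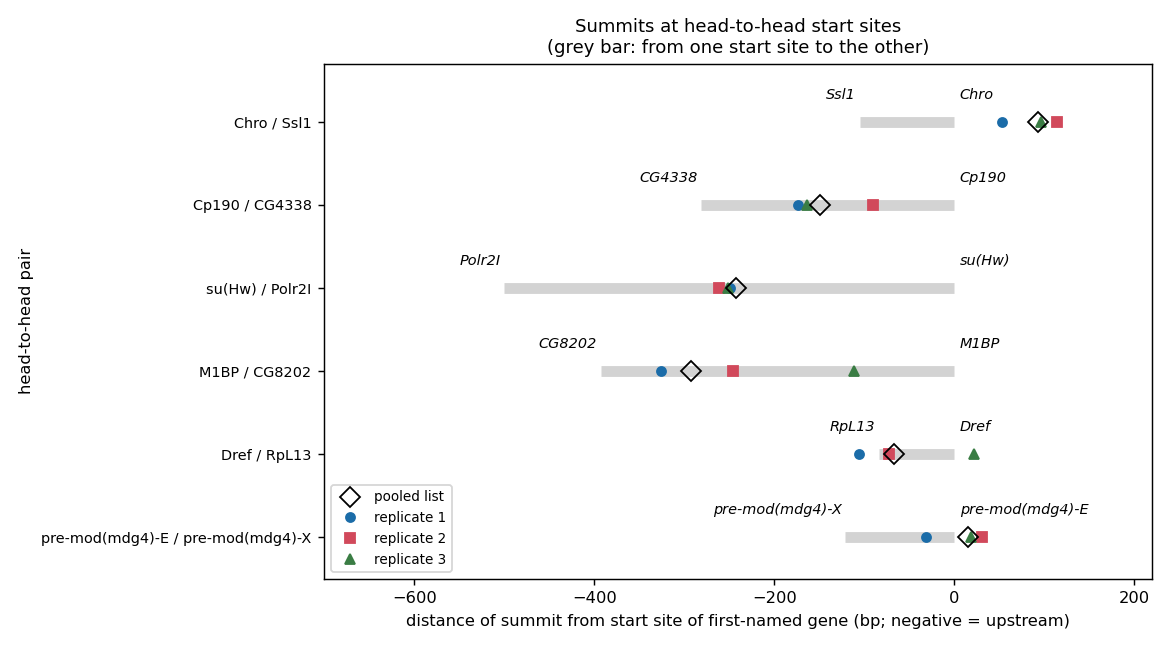
Distance (x axis, bp, negative is upstream) of the pooled and replicate summits from the start site of the gene named first, for the 5 member pairs and for pre-mod(mdg4)-E and pre-mod(mdg4)-X inside mod(mdg4), with a grey bar between both start sites. The symbols of Cp190, su(Hw) and M1BP all lie on the bar, those of Chro lie 53 to 114 bp inside Chro, and those of Dref run from −106 to 22 bp, past the bar on both sides.

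Motifs bound by Trl, BEAF-32, Dref and M1BP, and a homeodomain core, were searched for in the sequence around the summits. No motif of CTCF, su(Hw) or pita was searched. GAGAG stood for the GAGA factor, CGATA for BEAF-32, TATCGATA for Dref (it contains CGATA on both strands), GGTCACAC for M1BP and TAATTA for homeodomain proteins. Both strands were searched within 50 bp of the summit. Of the 10 optimal member summits 2 held any of the 5 motifs (Wilson interval 5.67 to 51.0%), against 34.4% of all optimal summits and 29.0% of the 26843 pooled-list peaks clear of every optimal peak. The Chro summit held CGATA 3 bp from its centre. CGATA was found in 18.0% of all optimal summits, 23.7% of the optimal summits near a start site and 12.7% of the pooled-list peaks clear of every optimal peak. The downstream Trl summit held TAATTA 8 bp from its centre, and TAATTA was found in 10.8% of all optimal summits and 7.83% of the others. No member window held GAGAG (8.31% of all optimal summits), TATCGATA (2.77%) or GGTCACAC (0.656%), where 0 of 10 allows up to 27.8% by the Wilson interval.

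Within 100 bp, CGATA was also present at the Dref summit, 52 bp away in the stretch to RpL13 printed above, and TAATTA near the distal Trl summit, 89 bp away. Shares over all optimal summits at that width were 31.8% for CGATA and 19.1% for TAATTA. Over the optimal summits near a start site they were 41.7% and 19.8%. The best CTCF summit, which is not optimal, had TATCGATA 79 bp away, an element that holds CGATA on both strands. Within 100 bp, 5.43% of all optimal summits had it, and 9.23% of those near a start site. Of the pooled-list peaks clear of every optimal peak, 1.61% had it. The best pita summit had CGATA 68 bp away and the best su(Hw) summit TAATTA 58 bp away, and neither is optimal. Of the pooled-list peaks clear of every optimal peak, 23.3% had CGATA and 15.2% had TAATTA within 100 bp. In the printed stretch from CG4338 to Cp190, TATCG was found once, close to the Cp190 end. CGATA was present in 39.8% of optimal windows of 281 bp, and in 50.6% of those near a start site. In windows of 83 bp, the length of the stretch between Dref and RpL13, the share was 14.8%, and 20.2% near a start site. No match says only that these letters are not in the window, and a match is not a measured site.

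**Figure D4:**
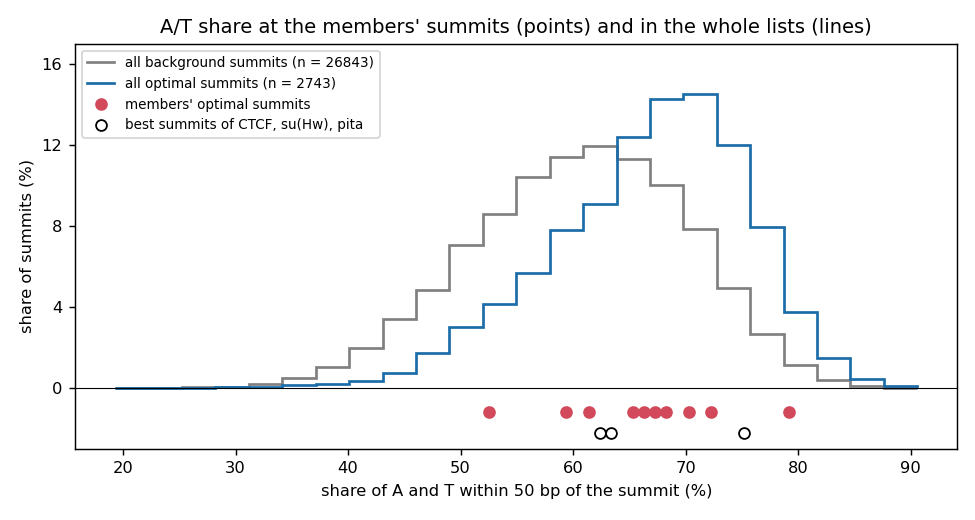
Share of A and T within 50 bp of the summit (x axis, %) for all optimal summits (blue line), for the pooled-list peaks clear of every optimal peak (grey line), both as the share of summits per bin (y axis, %), with points below the axis for the members' summits. The red points run from 52.5% at Dref to 79.2% at Cp190, around the middle of the blue line.

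Base composition is given as a description. A and T made up 66.2% ± 7.36 (SD, n = 10 summits) of the bases within 50 bp, with a median of 66.8%, against 66.7% ± 8.68 over all 2743 optimal summits and 60.5% ± 9.46 over the pooled-list peaks outside. The Cp190 summit had the highest share, 79.2%, and the Dref summit the lowest, 52.5%. The summits of Trl ranged from 59.4 to 72.3%.

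Other genes of chromatin architecture and promoter binding were taken from 4 lists of 31 genes, of which 13 were bound (41.9%, against 19.7% of all protein-coding genes), each of them with an optimal summit within 500 bp of its own start site. Among 11 genes for partners of insulator proteins 8 were bound. The highest peak was that of JIL-1, a kinase of histone H3 on open chromatin, at pooled rank 355 and ranks of 281, 514 and 398, with its summit 7084 bp inside the gene and another optimal summit at its start site. Then came fs(1)h, a bromodomain protein (rank 691), shep, an RNA-binding protein that affects insulators (rank 722, 5 optimal among 30 pooled-list summits), and Cap-H2, a condensin subunit (rank 950), where the nearest start site was that of MED7.

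Of the other 8 genes for DNA-binding insulator proteins, row was bound, with a zinc-finger product, a summit 142 bp upstream of its start site and ranks of 593, 344 and 646. Of 7 cohesin genes pds5 and SMC1 were bound. The pds5 peak had the highest rank of all 31 genes, 69 in the pooled list and 51, 96 and 71 in the replicates, and lay 171 bp upstream of pds5 and 107 bp from the start site of Mppe. SMC1, a core cohesin subunit, had a peak at rank 1879, with ranks of 1338, 5728 and 1708. Of 5 genes for GAGA-binding and early-acting promoter factors lola (rank 428) and psq (rank 1477, 3 optimal summits) were bound, and both encode BTB proteins. The unbound genes included Clamp, zld and Nipped-B. The lists were chosen with results of these data known and hold 5 to 11 genes each, and no difference between them was tested.

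The genes whose best peaks had the replicate ranks most like those of Trl and Chro were found among 2119 protein-coding genes with a nearest-start-site optimal peak. Likeness was the sum over 3 replicates of the absolute difference of log2 rank, and smaller is more alike. For Trl these were SLC5A11 (0.95; ranks 8, 21 and 14), Lk6 (1.03; ranks 13, 18 and 23) and CG32772 (1.27; ranks 20, 17 and 12). For Chro they were CG5611 (0.82; ranks 14, 9 and 10), the Polycomb group gene ph-p (1.39; ranks 12, 8 and 7) and Ugalt (1.72; ranks 10, 5 and 6). All 6 ranked from 7 to 17 in the pooled list, among the highest peaks, as Trl and Chro do by choice.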

How the data were processed

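Peak lists on dm6 (BDGP Release 6) were deposited for each of the 3 replicates, for the replicates pooled, and as an optimal list. According to the deposited README texts, the authors called peaks against a control alignment and fed the lists to a reproducibility procedure based on ranks. Aligner and peak caller were not given in the sources used. The score is a value the authors deposited with each peak, and here it only orders the peaks of a list. A −log10 q, also deposited, only describes the lists and the best summits of CTCF, su(Hw) and pita. The summit is the deposited peak start plus the deposited summit offset, another value of the authors, and it fell at the interval's middle for 2435 of 2743 optimal peaks. The dm3 lists were not used, since no coordinate was converted. No column of another sample was present (0 unused columns).

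Gene models were Ensembl release 115 (BDGP 6.54). Sequence came from the RefSeq Release 6 genome. Positions are 1-based, and distances are from starts of protein-coding transcripts. Genes with an optimal summit between 1000 bp upstream and the end of the gene were called bound. A peak was matched in a replicate when at least 1 bp of it overlapped any of that replicate's 2743 highest-scoring peaks. Intervals are 95% Wilson intervals and cover counting error only. Depth is unknown. Scripts in Python 3.11.15 with pandas 2.3.3 and numpy 2.4.6 were tested on simulated data.

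The text names, by rule, all 10 members with every optimal summit or else their best pooled-list summit, the nearest gene at each, up to 4 bound genes of each of 4 lists (all 31 names matched), and the 3 genes most like Trl and Chro in replicate ranks. Clamp, zld, Nipped-B and the second BEAF-32, mod(mdg4) and Cp190 summits were named after their values were seen. The members and lists were chosen with earlier results of these data known. No tests were run, since there is 1 group and the members were chosen by their peaks. The alternatives were other gene windows, peak overlap, shorter peak lists, other replicate matching, motif windows and leaving out each replicate. To leave out a replicate, only optimal peaks matched in both others were kept, and no peaks were called anew.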

Additional observations from a re-analysis of the deposited data

How the results depend on the processing

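Of 62 recomputed values under the alternatives, 48 stayed within 1.5 times of the main count or, for shares, within their interval, 14 moved and 0 reversed. All are counts or shares, which have no direction to reverse, so the 0 is no sign of steadiness. With the gene body alone the bound members fell from 7 to 3 (Trl, Chro and mod(mdg4)), the optimal summits from 10 to 6 and the other architectural genes from 13 to 6, and 7.82% of all protein-coding genes were bound, in place of 19.7%. That share was 21.6% with 2 kb upstream, 17.2% within 1 kb of an own start site, 20.7% with any overlap of the peak, 11.5% with the 1371 higher-scoring peaks, 13.0% with the peaks matched in all 3 replicates and 14.3 to 15.3% when each replicate was left out, where fewer peaks are used. With the 1371 higher-scoring peaks 8 other architectural genes were bound. M1BP and Dref were the members lost, leaving 5, with those peaks, with the peaks matched in all 3 replicates, without replicate 2 and without replicate 3. Without replicate 1 only Dref was lost, leaving 6. TAATTA fell to 0 at summits near a member's start site. The members with an optimal summit at their own start site numbered 4 to 5 when a replicate was left out and 5 to 6 with distances of 250 and 1000 bp. Depth is unknown, so its limit cannot be given. No paired analysis was possible because there is 1 group.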
